A study of Mus musculus with 8 samples.

Results

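Wfs1, Fibcd1, Pou3f1, Mpped1, Spink8 and Bok were examined as markers of the pyramidal cell fields of the hippocampus, which adjoin the dentate gyrus and can be carried along when it is dissected. Every probe whose gene symbol was one of these 6 names was taken, which gave 8 of the 56605 probes on the array and 6 of 26894 gene symbols. 7 of the 8 probes, at least 1 for each gene, were bright enough to be tested. The RNA came from the dentate gyrus of mice (C57BL/6, male, 8 to 9 weeks old) and was hybridised to 8 one-colour arrays, 2 for each of 4 groups. Derlin-1 control mice carried Derl1 flox/flox and Derlin-2 control mice carried Derl2 flox/flox. In Derlin-1 KO mice and likewise in Derlin-2 KO mice the same floxed alleles were combined with Cre recombinase under the nestin promoter, which is active in neural precursors, so that the deletion reaches neurons and glia of the pyramidal fields as well as those of the dentate gyrus. The genotype label of the KO samples names the floxed alleles without Cre, so the groups rest on the sample titles. The labels do not say whether the 2 arrays of a group came from separate mice or from pooled tissue, so the p-values below measure the spread between these samples, which may be technical. All 4 arrays of the Derlin-1 line lay on 1 slide and all 4 of the Derlin-2 line on another, so that line and slide cannot be told apart.

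The hippocampus is a chain of fields in which granule neurons of the dentate gyrus send their mossy fibres to the pyramidal neurons of CA3, and these project on to CA1. The cell bodies of each field form a thin layer, and the blades of the dentate gyrus lie close to the pyramidal fields, so that genes restricted to pyramidal neurons are commonly read as a measure of how cleanly a dentate sample was cut. Wfs1 encodes wolframin, a membrane glycoprotein of the endoplasmic reticulum (ER) that is strongly expressed in CA1. Fibcd1 encodes a cell surface receptor that binds acetylated sugars, Pou3f1 a POU domain transcription factor, Mpped1 a metallophosphoesterase and Spink8 a Kazal-type protease inhibitor, and the 4 transcripts are likewise used as CA1 markers. Bok encodes a BCL2 family protein of ER membranes that is cleared by ER-associated degradation, the process in which Derlin-1 and Derlin-2 take part, and its transcript has served as a marker of CA3.

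RefSeq promoter windows of the GRCm38.p6 build were held for 4 of the 6 genes, in 5 windows, and not for Pou3f1 or Spink8. The 250 bases before the gene start are shown for all 4 of these genes. The levels of Fibcd1 and Mpped1 rose and fell together most closely, and Wfs1 and Bok departed from that pattern. Mpped1 had a second window further along the gene, which is not shown. Capitals mark matches on either strand to the GC box (GGGCGG, in 32.7% of 32851 such windows in the table), the CCAAT box (CCAAT, 33.8%), the TATA box (TATAAA, 12.4%) and the E-box CAGATG (14.4%), overlaps included. All are written 5′ to 3′ on the gene's strand.
Fibcd1 (chr2:31846006-31846255, minus strand): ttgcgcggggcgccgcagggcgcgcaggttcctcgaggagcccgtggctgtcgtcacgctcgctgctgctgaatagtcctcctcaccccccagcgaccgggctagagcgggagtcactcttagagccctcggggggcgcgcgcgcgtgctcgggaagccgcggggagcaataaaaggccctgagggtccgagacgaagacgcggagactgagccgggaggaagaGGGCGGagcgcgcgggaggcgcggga
Mpped1 (chr15:83779773-83780022, plus strand): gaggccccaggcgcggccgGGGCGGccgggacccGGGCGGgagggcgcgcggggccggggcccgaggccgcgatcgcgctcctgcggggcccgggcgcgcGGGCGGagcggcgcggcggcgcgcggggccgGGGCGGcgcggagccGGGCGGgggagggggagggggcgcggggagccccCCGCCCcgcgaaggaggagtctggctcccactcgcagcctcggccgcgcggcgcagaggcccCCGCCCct
Wfs1 (chr5:36988983-36989232, minus strand): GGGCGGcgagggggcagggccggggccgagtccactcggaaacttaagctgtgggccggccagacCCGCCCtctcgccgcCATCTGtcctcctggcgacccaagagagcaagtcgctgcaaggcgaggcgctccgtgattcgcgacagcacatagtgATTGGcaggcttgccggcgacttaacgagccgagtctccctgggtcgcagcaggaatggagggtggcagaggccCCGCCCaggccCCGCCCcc
Bok (chr1:93685325-93685574, plus strand): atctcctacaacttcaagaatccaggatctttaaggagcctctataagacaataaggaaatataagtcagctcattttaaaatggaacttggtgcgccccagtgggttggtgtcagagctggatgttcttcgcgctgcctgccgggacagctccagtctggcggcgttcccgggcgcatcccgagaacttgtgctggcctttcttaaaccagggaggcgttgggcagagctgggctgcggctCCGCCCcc

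The Mpped1 window held 7 GC boxes and had a GC content of 88.8%, and the Fibcd1 window held 1 GC box at 71.6% GC. The Wfs1 window held 4 GC boxes, 1 CCAAT box and 1 E-box at 69.6% GC, and the Bok window 1 GC box at 55.2% GC, against a median GC content of 52.4% over all windows. None of the 4 windows shown held TATAAA. These matches describe the letters only, and the arrays carry no measurement of binding.

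Between 67.6% and 70.8% of probes were well above background on each array, and no spot was saturated. Log2 values correlated at 0.987 to 0.993 for arrays of one group, 0.986 to 0.992 for a KO array with a control of its line and 0.975 to 0.986 across lines. The brighter Derl1 probe read 10.86 and 10.76 in the Derlin-1 controls and 10.56 and 10.65 in the Derlin-1 KO arrays, while the dimmer one read 7.36 and 7.36 against 7.93 and 7.70. The brighter Derl2 probe read 11.36 and 11.22 in the Derlin-2 controls and 10.63 and 10.65 in the Derlin-2 KO arrays. The dimmer Derl2 probe read 9.12 and 8.74 against 7.83 and 7.93. Whether these probes lie in the deleted exons is not given in the sources used here, so they do not check the labels fully.

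The brightest probe of each of the 6 genes was well above background on all 8 arrays. The same held for 18056 of the 26894 gene symbols, and for every gene in the marker lists of thalamus, choroid plexus and blood. Detection was therefore not particular to the 6 genes. All 7 granule neuron markers examined, among them Prox1, the transcription factor that defines granule neurons, were above background on all 8 arrays as well. In bulk tissue, fewer cells of a type cannot be told apart from less RNA per cell. Values below are quantile-normalized log2 signals, and a difference of 1 is a factor of 2 in signal. They are comparable between arrays for the same probe, not between probes.

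**Figure D1:**
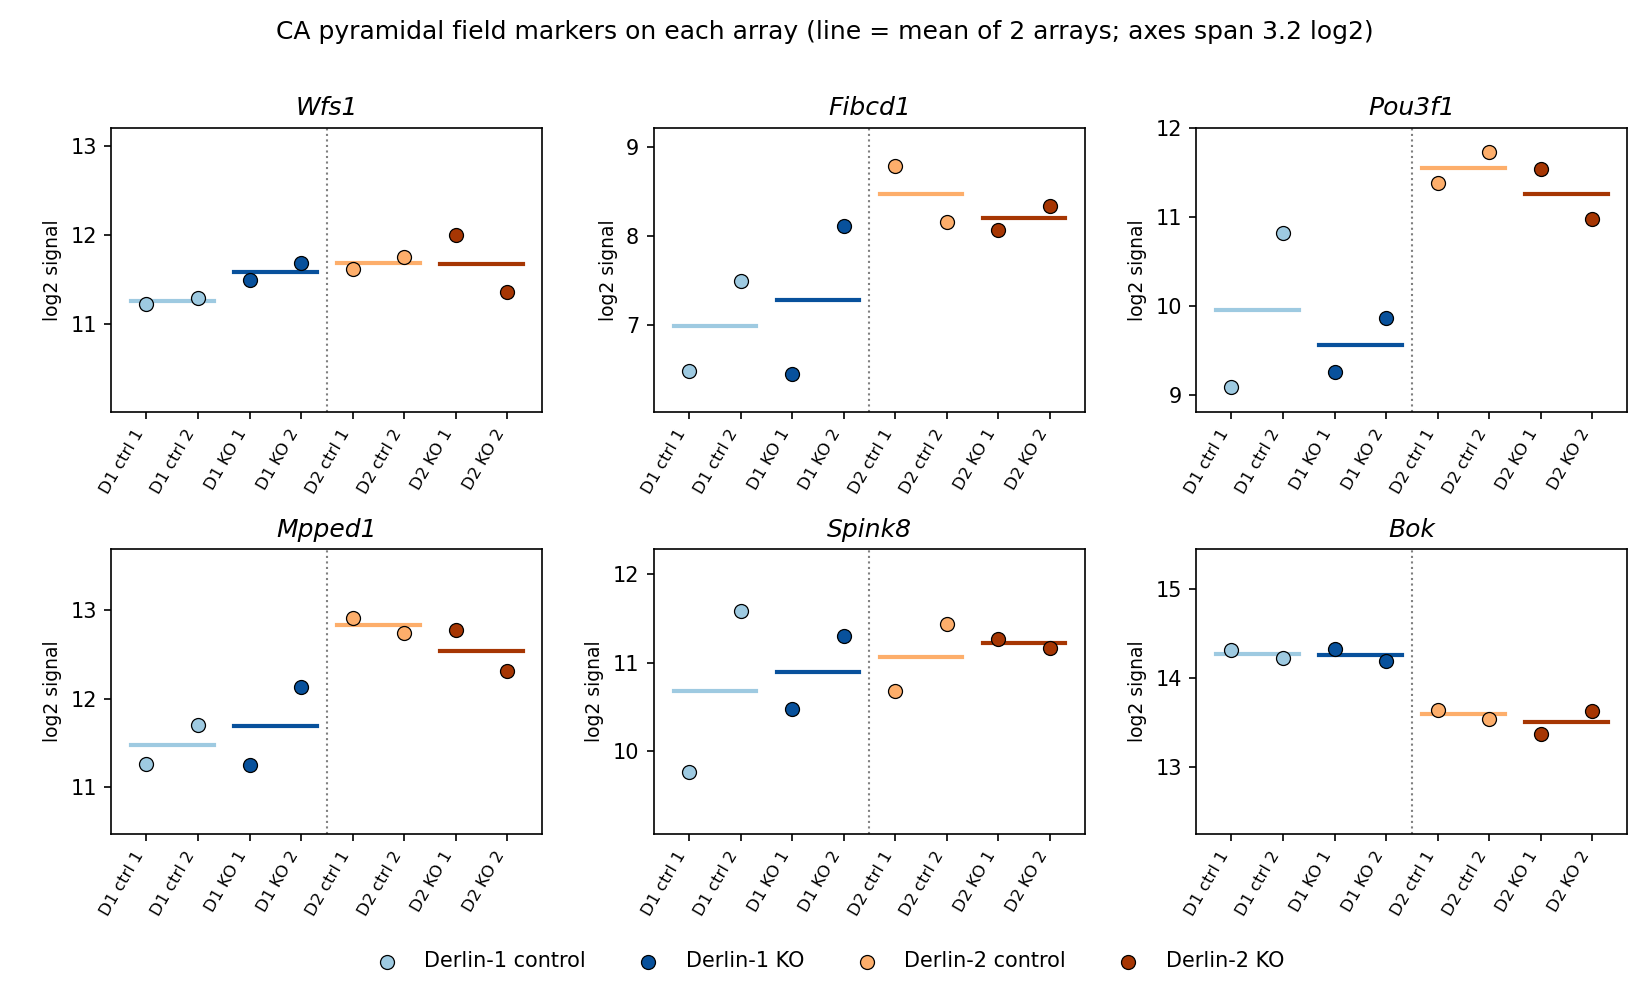
Quantile-normalized log2 signal of the brightest probe of each gene (y axis, 3.2 log2 units in every panel) on the 8 arrays (x axis), with 1 point per array and a line for the mean of the 2 arrays of a group. Fibcd1, Pou3f1, Mpped1 and Spink8 were low on Derlin-1 control 1 and Derlin-1 KO 1, Wfs1 moved little, and Bok was lower on all 4 arrays of the Derlin-2 line.

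Pou3f1, the transcription factor, varied most. It read 9.08 and 10.82 in the Derlin-1 controls (replicates 1 and 2, the order kept throughout), 9.26 and 9.86 in the Derlin-1 KO arrays, 11.38 and 11.73 on the Derlin-2 controls and 11.54 and 10.98 on the Derlin-2 KO arrays. The highest array was thus 6.27-fold above the lowest, and all 4 Derlin-2 arrays lay above all 4 Derlin-1 arrays. Within the Derlin-1 line alone the values spanned a factor of 3.32, with both replicate 1 arrays at the bottom.

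Fibcd1, the sugar receptor, read 6.48 and 7.49 in the Derlin-1 controls, 6.45 and 8.11 in the Derlin-1 KO arrays, 8.79 and 8.16 in the Derlin-2 controls and 8.07 and 8.34 in the Derlin-2 KO arrays. The 2 lowest arrays were again Derlin-1 control 1 and Derlin-1 KO 1, which differed from each other by far less than either did from its own replicate. The range over the 8 arrays was 5.06-fold, and the 2 lines overlapped.

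Mpped1, the metallophosphoesterase, had 3 probes. Its brightest read 11.26 and 11.70 in the Derlin-1 controls, 11.25 and 12.13 in the Derlin-1 KO arrays, 12.91 and 12.74 in the Derlin-2 controls and 12.77 and 12.31 in the Derlin-2 KO arrays, a range of 3.15-fold in which the lines did not overlap. The second probe was well above background on only 4 of the 8 arrays, at 4.19 and 4.47 in the Derlin-1 controls, 3.42 and 3.54 in the Derlin-1 KO arrays, 4.44 and 4.52 in the Derlin-2 controls and 4.42 and 3.93 in the Derlin-2 KO arrays. The KO arrays of each line lay below its controls on this dim probe, which the brightest probe did not show. The third probe was above background on 1 array, ranged from 2.76 to 4.62 and was not tested.

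Spink8, the protease inhibitor, separated the replicates of the Derlin-1 line rather than the lines. It read 9.77 and 11.58 in the Derlin-1 controls, 10.48 and 11.30 in the Derlin-1 KO arrays, 10.68 and 11.44 in the Derlin-2 controls and 11.27 and 11.16 in the Derlin-2 KO arrays. Its lowest array was Derlin-1 control 1 and its highest Derlin-1 control 2, so that the full range of 3.50-fold occurred within 1 group.

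Wfs1, the ER glycoprotein, had the smallest range of the 6. It read 11.22 and 11.29 in the Derlin-1 controls, 11.49 and 11.69 in the Derlin-1 KO arrays, 11.62 and 11.75 in the Derlin-2 controls and 12 and 11.36 in the Derlin-2 KO arrays, a range of 1.71-fold. Both Derlin-1 KO arrays lay above both Derlin-1 controls, while the 2 Derlin-2 KO arrays lay on either side of their controls.

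Bok, the BCL2 family member, ran the other way. It read 14.31 and 14.22 in the Derlin-1 controls, 14.32 and 14.19 in the Derlin-1 KO arrays, 13.64 and 13.54 in the Derlin-2 controls and 13.37 and 13.63 in the Derlin-2 KO arrays. The lines were separated by a gap of 0.55, wider than the range within the Derlin-1 line (0.14) or the Derlin-2 line (0.27). The 6 genes therefore did not vary as 1 group, and Bok is given apart from the other 5 where levels are compared between arrays.

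The within-group standard deviation (SD) was 0.751 for Spink8, 0.727 for Fibcd1, 0.689 for Pou3f1 and 0.387 for Mpped1, against a median of 0.154 over the 35038 probes above background on all arrays. Between 92.7% and 99.2% of those probes had a smaller within-group SD than these 4 genes. Wfs1 (0.241, above 74.7% of probes) and Bok (0.115, above 33.5%) lay nearer the middle. The 4 variable genes spread more in the Derlin-1 line, with ranges of 0.88 to 1.81, than in the Derlin-2 line, with ranges of 0.59 to 0.76, a contrast that was not tested.

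No probe of the 6 genes passed the test between KO and control in the Derlin-1 line (0 of 7 at an adjusted p under 0.05 by limma), where 0% of 39981 probes did so. 1 of the 7 had an unadjusted p under 0.05, against 4.69% of all probes, and it was the dim second probe of Mpped1, with a log2 difference of -0.85 ± 0.19 (SE) and an adjusted p of 1 by limma. For the brightest probes the differences, KO minus control, ran from -0.39 to 0.34 with a median of 0.21, against a median of -0.0206 over all probes tested. Wfs1 was at 11.26 ± 0.0444 (SD, n = 2) in the controls and 11.59 ± 0.142 in the KO arrays, a difference of 0.34 with a 95% interval of -0.19 to 0.86. The intervals of Fibcd1 (-1.16 to 1.75) and Spink8 (-1.29 to 1.71) were wide enough to hold changes of more than a factor of 2 either way, and that of Pou3f1 ran from -1.77 to 0.99. Bok was the most tightly measured, at -0.01 with an interval of -0.32 to 0.30. 2 of the 7 probes, Wfs1 above and the second Mpped1 probe below, did not overlap between KO and control, against 35.7% of all probes.

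The Derlin-2 deletion gave the same count, with 0 of 7 probes past the adjusted threshold by limma against 0.0452% of 39812 probes, and 0 of 7 at an unadjusted p under 0.05 against 5.51%. The differences of the brightest probes ran from -0.30 for Pou3f1 to 0.16 for Spink8, with a median of -0.18 against 0.00798 over all probes. Wfs1 was at 11.68 ± 0.0929 (SD, n = 2) in the controls and 11.68 ± 0.448 in the KO arrays, with a difference of 0.00 and a 95% interval of -0.52 to 0.52. Mpped1 differed by -0.28 (interval -1.08 to 0.51) and Fibcd1 by -0.27 (-1.72 to 1.19). Only the second Mpped1 probe did not overlap between the groups (1 of 7, against 31.2% of all probes). The difference between the 2 KO effects, Derlin-1 minus Derlin-2, also passed for 0 of 7 probes (0.00754% of all probes), and for 0 of 7 at an unadjusted p under 0.05 (5.85%), with values from -0.10 for Pou3f1 to 0.56 for Fibcd1 among the brightest probes. With 2 arrays a group, these comparisons leave the deletions' effect on the 6 genes bounded by the intervals above rather than shown to be nil.

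**Figure D2:**
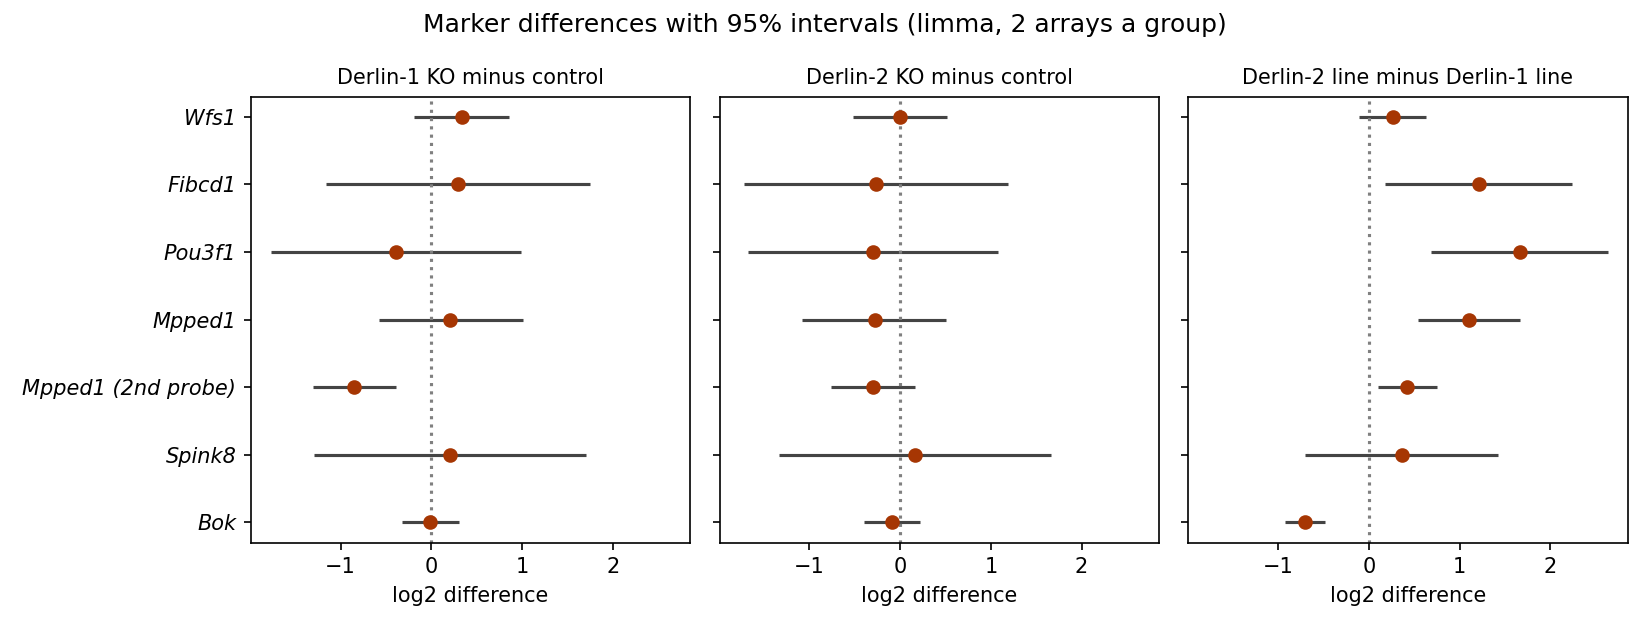
Log2 differences (x axis, points) with 95% limma intervals (bars) of the 7 tested probes (y axis) for each KO against its control and for the Derlin-2 line against the Derlin-1 line. The KO intervals include 0 except for the dim second Mpped1 probe in the Derlin-1 line, while Pou3f1, Mpped1 and Fibcd1 lay above 0 and Bok below it between the lines.

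The largest differences lay between the lines rather than between genotypes. With the 4 Derlin-2 arrays set against the 4 Derlin-1 arrays, Pou3f1 was higher by 1.66 ± 0.40 (SE, adjusted p = 0.0289 by limma) and Mpped1 by 1.1 ± 0.23 (adjusted p = 0.0199), while Bok was lower, at -0.71 ± 0.09 (adjusted p = 0.006). Fibcd1 differed by 1.21 ± 0.42 but did not pass (adjusted p = 0.0764), and neither did Spink8 at 0.36 ± 0.44 (adjusted p = 0.559) or Wfs1 at 0.26 ± 0.15 (adjusted p = 0.237). The count of 3 called probes of 7 stands beside 29.9% of all probes called in this contrast, and 5 of 7 at an unadjusted p under 0.05 beside 44.5%. 3 of the 7 did not overlap between the lines, against 35.2% of all probes. Of all probes, 13.2% were called higher in the Derlin-2 line and 16.7% lower, so calls between the lines were common on these arrays. Without Derlin-1 control 1 and Derlin-1 KO 1, none of the 7 probes was called (504 of 39774 probes were), and the differences became 1.07 for Pou3f1 (adjusted p = 0.101) and 0.77 for Mpped1 (adjusted p = 0.112). Without Derlin-2 KO 1 alone, only Bok remained called.

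The question of how the genes vary together between samples was then examined over the 15 pairs of their brightest probes, with exact permutation tests and Benjamini-Hochberg adjustment over the 15 pairs. Since Bok split the arrays into 2 separate clusters by line, its pairs are given only after each slide was centred on its own mean. Among the other 5 genes, all 10 pairs were positively correlated across the 8 arrays, with r from 0.43 to 0.92 and a median of 0.64. 3 of the 10 passed the adjusted threshold by Pearson's r and 0 by Spearman's rho, although 2 had an unadjusted p under 0.05 by rho. The 15 pairs adjusted over include the pooled pairs with Bok, whose exact permutation p went down to 0.00241. Such values can lower the adjusted p of the other pairs, and no adjustment over the 10 alone was run.

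Fibcd1 and Mpped1 were the closest pair, with r = 0.92 (exact permutation p = 0.00151, adjusted 0.016) and rho = 0.83 (exact permutation p = 0.0154, adjusted 0.0577). Pou3f1 and Mpped1 followed at r = 0.90 (exact permutation p = 0.00615, adjusted 0.0231) and rho = 0.86 (exact permutation p = 0.0107, adjusted 0.0536). Fibcd1 and Pou3f1 stood at r = 0.82 (exact permutation p = 0.0159, adjusted 0.0478) and rho = 0.67 (exact permutation p = 0.0831, adjusted 0.156). In each of these 3 pairs the 2 lowest arrays were Derlin-1 control 1 and Derlin-1 KO 1. With those 2 arrays, the farthest from the median, left out, r was 0.77 for Fibcd1 and Mpped1 (exact permutation p = 0.0708), 0.68 for Pou3f1 and Mpped1 (exact permutation p = 0.133) and 0.26 for Fibcd1 and Pou3f1 (exact permutation p = 0.60). Leaving out arrays because they are extreme can lower r by itself, and only 6 arrays remained. Pou3f1 and Mpped1 also separated the lines without overlap. The shares of these 2 arrays and of the line in r were not tested.

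Once each slide was centred on its own mean, the same 3 pairs had r = 0.84, 0.59 and 0.52, and Pou3f1 with Spink8 reached r = 0.83 (exact permutation p = 0.066, adjusted 0.306) and rho = 0.91 (exact permutation p = 0.0243, adjusted 0.339). All 10 pairs stayed positive, from 0.20 to 0.84, but 0 passed the adjusted threshold in the exact permutation test and 0 had an unadjusted p under 0.05 by r. Within the Derlin-1 line alone (4 arrays, no test), Fibcd1 with Mpped1 had r = 0.99 and Fibcd1 with Spink8 0.83. Within the Derlin-2 line the same pairs had r = 0.28 and -0.95, so the direction was not shared between the lines for Fibcd1 and Spink8. Bok was negatively correlated with each of the other 5 genes after centring, from r = -0.21 with Fibcd1 to -0.76 with Wfs1 (exact permutation p = 0.066, adjusted 0.306), and no pair passed.

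**Figure D3:**
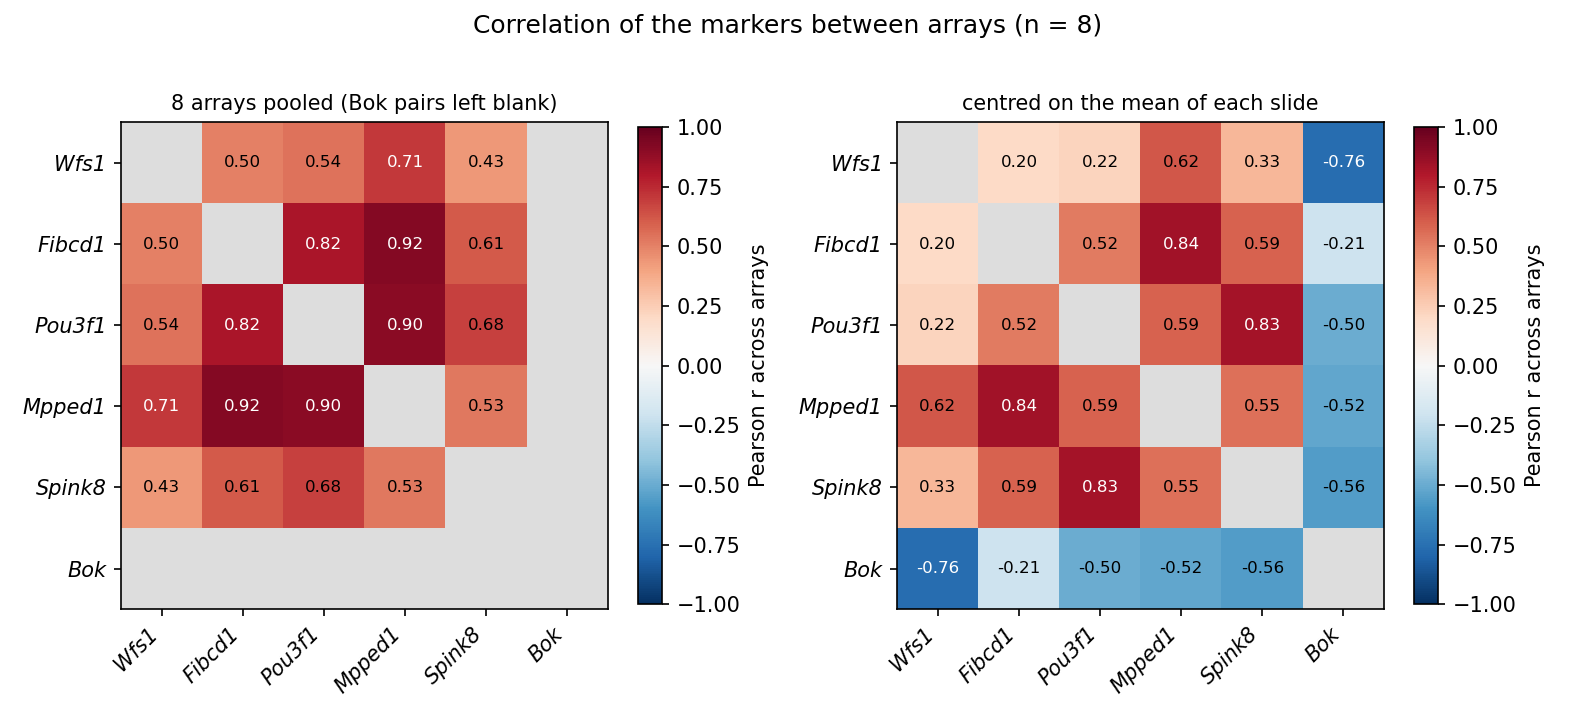
Pearson's r between the brightest probes of each pair of genes across the 8 arrays (colour and printed value), for the pooled arrays on the left and after centring each slide on its mean on the right. Pooled pairs with Bok are left blank because Bok split the arrays by line. The 10 other pairs were positive in both panels, and all 5 pairs with Bok were negative after centring.

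**Figure D4:**
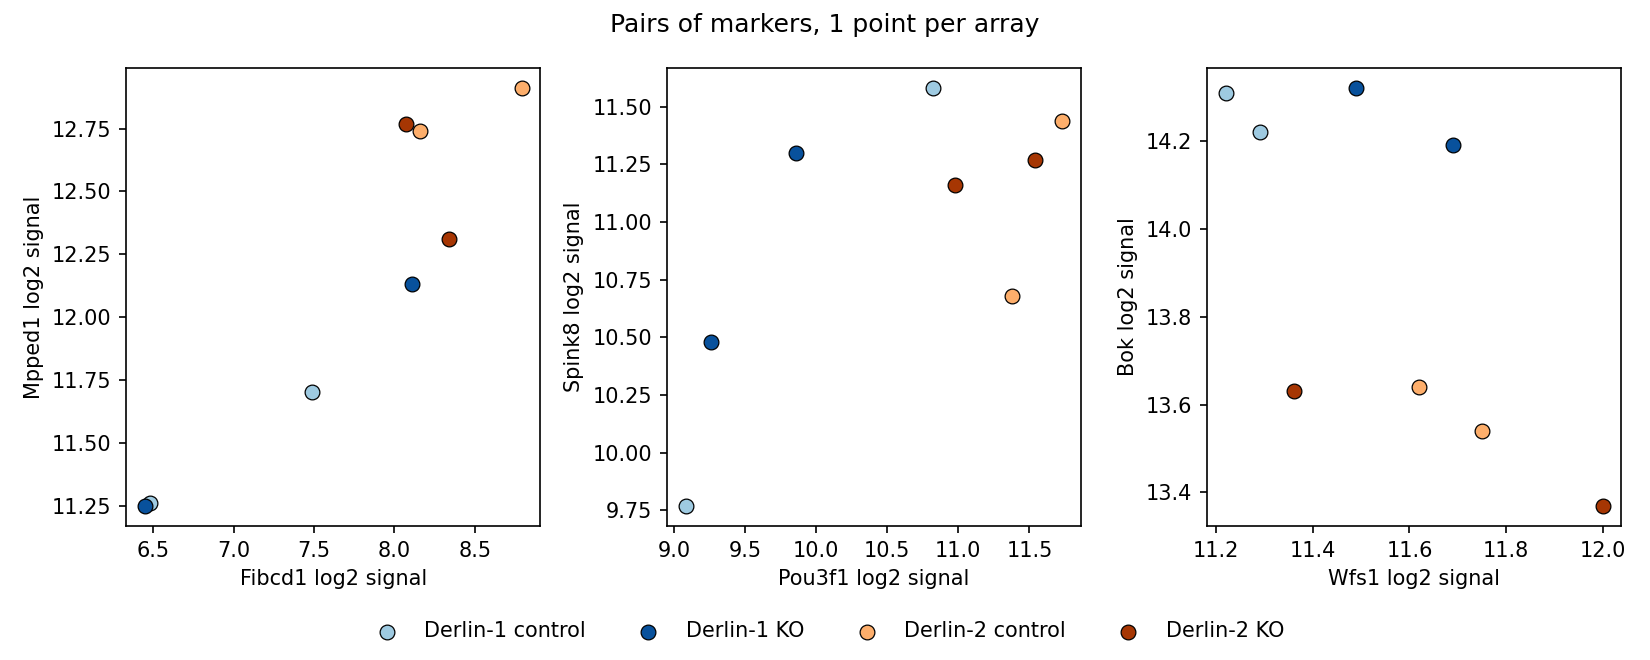
Log2 signal of 3 pairs of genes, with 1 point per array coloured by group. Fibcd1 and Mpped1 rose together from Derlin-1 control 1 and Derlin-1 KO 1 at the lower left to Derlin-2 control 1 at the upper right, Pou3f1 and Spink8 were lowest on Derlin-1 control 1, and Bok fell into 2 clusters by line against Wfs1.

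The mean level of the 6 genes, each taken relative to its own mean over the 8 arrays, was -0.79 and 0.04 in the Derlin-1 controls, -0.60 and 0.07 in the Derlin-1 KO arrays, 0.36 and 0.42 in the Derlin-2 controls and 0.36 and 0.15 in the Derlin-2 KO arrays. Without Bok the same arrays read -1.03, -0.02, -0.81, 0.02, 0.48, 0.57, 0.54 and 0.24. Derlin-1 control 1 and Derlin-1 KO 1 were the lowest on either scale, and without Bok the KO arrays of each line overlapped its controls. The within-group SD of the mean level was 0.383 over the 4 groups, and the replicates lay further apart in the Derlin-1 line than in the Derlin-2 line.

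A second list of 9 pyramidal neuron genes, all above background on all 8 arrays, was lowest on the same arrays. Its mean level was -0.42 and -0.13 in the Derlin-1 controls, -0.34 and -0.14 in the Derlin-1 KO arrays, and 0.21 to 0.31 on the 4 Derlin-2 arrays. 0 of 9 genes passed in either KO contrast by limma and 0 had an unadjusted p under 0.05, with medians of 0.04 and -0.05. Between the lines, 5 of 9 were called, all higher in the Derlin-2 line, where 13.2% of all probes were called higher, among them Lefty1, a TGF-beta family inhibitor (1.48 ± 0.21, SE), Gpr161, a receptor of the primary cilium (0.82 ± 0.18), the receptor kinase Tyro3 (0.45 ± 0.099) and the transcription factor Neurod6 (0.36 ± 0.07). Lefty1 read 6.77 and 7.68 in the Derlin-1 controls, 7.08 and 7.13 in the Derlin-1 KO arrays and 8.36 to 8.83 in the Derlin-2 line, and had the widest range of the list (2.06). The brightest probes of Man1a (0.25), Crym (0.17), Ociad2 (-0.05) and Dkk3 (-0.06) did not pass between the lines, and Dkk3 had the narrowest range (0.31). The second Man1a probe did pass (0.44, adjusted p = 0.0243 by limma), so the probes of that gene disagree. After slide centring, r with the mean level of the 6 genes, given as a description, was 0.96 for Gpr161, 0.77 for Lefty1 and Ociad2, 0.52 for Crym, 0.30 for Tyro3, 0.06 for Neurod6, -0.06 for Man1a and -0.11 for Dkk3.

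The granule neuron markers had a mean level of 0.50 and 0.23 in the Derlin-1 controls, 0.23 and -0.06 in the Derlin-1 KO arrays and -0.27 to -0.15 on the 4 Derlin-2 arrays, so that the array with the lowest pyramidal level, Derlin-1 control 1, had the highest granule level. 4 of 7 were called lower in the Derlin-2 line by limma, where 16.7% of all probes were: Dsp, a desmosomal plaque protein (-0.91 ± 0.17, SE), C1ql2, a synaptic organiser of mossy fibres (-0.85 ± 0.15), Stxbp6, a SNARE-binding protein (-0.54 ± 0.13), and Tdo2, the tryptophan dioxygenase (-0.37 ± 0.10). Dsp read 12.01 and 11.62 in the Derlin-1 controls, 11.72 and 11.26 in the Derlin-1 KO arrays and 10.58 to 10.99 in the Derlin-2 line. Plk5 (-0.50), which had the widest range (1.76), Prox1 (-0.32), which had the narrowest (0.64), and Trpc6 (0.34) did not pass on their brightest probes. Dimmer probes of both genes were called lower, at -0.46 for the second Prox1 probe (adjusted p = 0.0406 by limma) and at -0.75 and -0.78 for the 2 other Trpc6 probes (adjusted p = 0.0151 and 0.00987), so that for Trpc6 the direction differs between probes. None of the 7 passed in a KO contrast, although C1ql2 and Plk5 in the Derlin-1 line and Tdo2 in the Derlin-2 line had unadjusted p under 0.05. After slide centring, r with the mean level of the 6 genes ran from -0.72 for Stxbp6 to -0.58 for Plk5 in 6 of the 7 genes and was 0.78 for the brightest probe of Trpc6, a calcium-permeable channel.

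**Figure D5:**
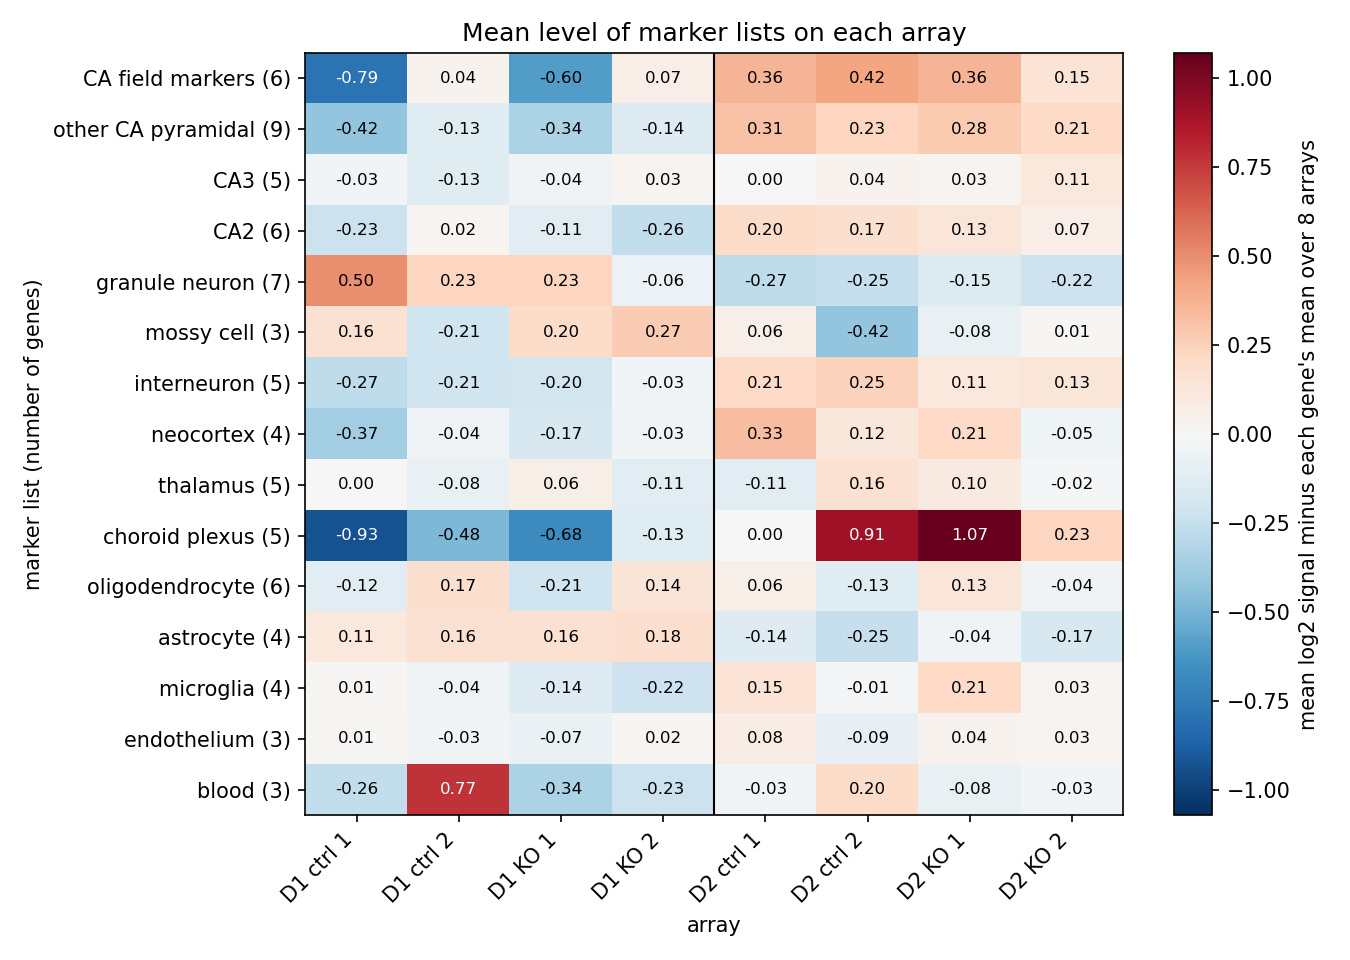
Mean level of each marker list (rows, number of genes in parentheses) on the 8 arrays (columns), as log2 signal minus each gene's own mean over the arrays. The 6 CA field markers and the other pyramidal genes were lowest on Derlin-1 control 1 and Derlin-1 KO 1, the granule neuron list was highest on Derlin-1 control 1, and the choroid plexus list had the widest range.

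Markers of CA3 showed no such pattern. Their mean level stayed between -0.13 and 0.11, with 0 of 5 called between the lines and 0 at an unadjusted p under 0.05 by limma, and ranges from 0.28 for Grik4, a kainate receptor subunit, to 0.77 for Coch. Bok, which is also used for CA3, was the member that left the others, but its fall between the lines was not seen on the brightest probes of these 5 genes, whose differences ran from 0.01 to 0.12. The dimmer probes of Nectin3 disagree with its brightest. They read -0.38 (adjusted p = 0.053 by limma, lines not overlapping), 0.01 and -0.30, and none was called. The second Cpne4 probe read 0.03 between the lines. In the Derlin-2 line this probe read 8.1 and 8.02 in the controls and 8.99 and 9.04 in the KO arrays. That difference, 0.95 ± 0.096 (SE), had an unadjusted p under 0.05 but did not pass adjustment by limma. The difference of the KO effects was -1.11 for this probe and did not pass either. The brightest Cpne4 probe differed by 0.17 in the Derlin-2 line, where KO and control arrays overlapped. In the Derlin-1 line 2 of the 5 had an unadjusted p under 0.05, Coch at 0.64 and Nectin3 at 0.41, and neither passed adjustment (adjusted p = 1 by limma). In the CA2 list 5 of 6 genes had higher values in the Derlin-2 line and 2 of them were called, Map3k15 (0.70, widest range 1.17) and Amigo2 (0.46). Of all probes, 13.2% were called higher in this contrast and 29.9% in either direction. Actn2 had the narrowest range of the list (0.29).

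Lists for tissue and cells that could accompany the dissection had these levels on the same arrays. The choroid plexus list had the widest range, from -0.93 on Derlin-1 control 1 to 1.07 on Derlin-2 KO 1, led by the thyroxine carrier Ttr with a range of 4.06 against 0.48 for Kl, and 2 of its 5 genes were called higher in the Derlin-2 line (13.2% of all probes were). All 5 choroid plexus genes were above background on all arrays. The neocortex list ranged from -0.37 on Derlin-1 control 1 to 0.33 on Derlin-2 control 1, with Scnn1a widest (1.83) and Rspo1 narrowest (0.45). 1 of its 4 genes, Fezf2, was called higher in the Derlin-2 line (0.50, adjusted p = 0.0174 by limma), where 13.2% of all probes were. The probes of Scnn1a disagree, since the brightest differed by 0.89 between the lines without passing and the second was called lower in the Derlin-2 line (-0.58, adjusted p = 0.0133 by limma). The interneuron list ranged from -0.27 to 0.25, with Pvalb widest (1.01) and the brightest Gad1 probe narrowest (0.32; a second Gad1 probe was called higher at 0.65), and 3 of 5 were called higher in the Derlin-2 line, beside the same 13.2% of all probes. The blood list stood at 0.77 on Derlin-1 control 2 and between -0.34 and 0.20 on the other 7 arrays, with Hbb-b1 widest (1.32) and Alas2 narrowest (1.08).

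The thalamus list kept within -0.11 and 0.16, from Slc17a6 (range 0.85) to the brightest Tcf7l2 probe (0.24), whose second probe was called higher in the Derlin-2 line (0.96, adjusted p = 0.00176 by limma), and the mossy cell list within -0.42 and 0.27, from Csf2rb2 (1.65) to Drd2 (0.39). The oligodendrocyte list lay between -0.21 on Derlin-1 KO 1 and 0.17 on Derlin-1 control 2, with Mobp widest (0.98) and Cnp narrowest (0.40). A second Mobp probe, fitted without 2 Derlin-2 arrays whose spots were outliers, was called higher in the Derlin-2 line (1.42, adjusted p = 0.0224 by limma). Astrocyte genes were at 0.11 to 0.18 in the Derlin-1 line and -0.25 to -0.04 in the Derlin-2 line, from Gfap (1.23) to Slc1a2 (0.29). Both Gfap probes were called lower in the Derlin-2 line (-0.79 and -0.60, adjusted p = 0.00568 and 0.014 by limma), where 16.7% of all probes were. Microglia genes lay between -0.22 and 0.21, from Csf1r (0.71) to Tmem119 (0.35), and endothelial genes between -0.09 and 0.08, from Cldn5 (0.52) to Flt1 (0.23). The brightest Csf1r probe was called higher in the Derlin-2 line (0.37, adjusted p = 0.0287 by limma), where 13.2% of all probes were. Its second probe read -0.14 and did not pass. In none of these lists was any gene called between KO and control of either line.

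Some genes outside the pyramidal lists had correlations with the mean level of the 6 genes as high as those of its own members. After slide centring, r with that level was 0.84 to 0.88 for Fibcd1, Pou3f1, Mpped1 and Spink8, 0.43 for Wfs1 and -0.54 for Bok, each of which is itself part of the mean. It was 0.92 for Mog, 0.83 for Cnp, 0.82 for Mobp and 0.77 for Mag among the oligodendrocyte genes, but -0.86 for Mbp, which encodes a basic protein of myelin. It was 0.90 for the brightest Scnn1a probe of the neocortex list, 0.85 for Pvalb of the interneuron list and 0.83 for Folr1 of the choroid plexus list. These were the highest of their lists. The other neocortex genes ran from -0.58 (Rspo1) to 0.64 (Fezf2). The other interneuron genes ran from -0.39 (Gad1) to 0.66 (Gad2), and the other choroid plexus genes from -0.63 (Kl) to 0.67 (Clic6). The part of these cells and tissues in the levels of the 6 genes was not tested.

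Among 1337 genes above background on all 8 arrays whose slide-centred range was at least 1, the 10 whose pattern was most like the mean level of the 6 genes were Ptpru, A930006D01Rik, Gm10426, Dlk1, Lce1a2, Gpr101, Cfap45, Olfr1252, Dsc3 and Gm14488, with r from 0.91 to 0.98 over the 8 arrays. Ptpru, a receptor tyrosine phosphatase, read 9.76 and 10.66 in the Derlin-1 controls, 10.07 and 10.83 in the Derlin-1 KO arrays, 11.55 and 11.61 in the Derlin-2 controls and 11.39 and 11.15 in the Derlin-2 KO arrays. Dlk1, a membrane protein of the Notch ligand family, had the widest slide-centred range of the 10 (2.92) and read 4.59 on Derlin-1 control 1 against 8.72 on Derlin-2 control 1. In all, 14 of the 1337 genes (1.05%) had r over 0.9 and 0 had r under -0.9. At the other end stood Znf41-ps, Cap1, Npnt, Robo3 and Bub1b, with r from -0.87 to -0.77. Robo3, an axon guidance receptor, read 12.42 and 11.90 in the Derlin-1 controls, 11.99 and 11.34 in the Derlin-1 KO arrays and 11.16 to 11.34 in the Derlin-2 line. These coefficients come from 8 arrays that share a normalization and describe likeness only.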

How the data were processed

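The deposited scanner files hold a spot intensity that Agilent Feature Extraction (version 10.7.1.1, per the labels) had background-subtracted and detrended, with flags for outliers and signal above background. Log2 values that the authors had quantile-normalized and shifted by each probe's median in GeneSpring stand in their deposited tables, which also gave the gene symbols. Their fold changes were not used. Control and outlier spots were removed, intensities below 1 were set to 1, and log2 values were brought to common quantiles across the 8 arrays before the spots of each probe were averaged. The filter required signal well above background on both arrays of some group (40001 probes). The 4 group means were fitted with limma (version 3.58.1, R version 4.3.3; 4 residual and 2.08 prior degrees of freedom), with two-sided tests and Benjamini-Hochberg adjustment over all probes. The limma script was tested on simulated data. The brightest probe stood for a gene and for the list counts. Correlations were tested over all 40320 orders of the arrays, or the 576 within slides. Named genes were the 6 genes, all pyramidal and granule list genes, the widest and narrowest gene of each other list, and the most alike; some list genes are counted but not reported here. The 6 genes and the lists were chosen with earlier results of these data known. The files hold no mean spot signal, so the normexp alternative used the median signal (offset 50). The number of arrays limits the precision.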

Additional observations from a re-analysis of the deposited data

How the results depend on the processing

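In both KO contrasts and in their difference, 0 of the 6 genes' probes were called by limma under every alternative run, while the calls over all probes ranged from 0 to 1 for Derlin-1 (0 in the analysis reported), from 0 to 55 for Derlin-2 (18) and from 0 to 21 for the difference (3). Between the lines 3 probes were called, 4 under 75th percentile scaling and under normexp, 2 with no filter, 1 to 3 with single arrays left out (1 without Derlin-2 KO 1) and 0 with Derlin-1 control 1 and Derlin-1 KO 1 left out, a choice made after seeing the data. Calls over all probes there ranged from 504 to 13703 (11908). With the replicate number as a block within each line, the counts were 0, 0, 0 and 4. The labels do not say whether same-numbered arrays were paired. Deviations of same-numbered arrays correlated at 0.33 for Derlin-1 and at -0.15 for Derlin-2 over 35038 probes. Crossing the numbers in the Derlin-2 line also gave 0, 0, 0 and 4.

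The count of 3 correlated pairs became 0 after slide centring, group centring (where 16 permutations allow no p below 0.125), leaving out the 2 arrays farthest from the median, or leaving out Derlin-1 control 1 and Derlin-1 KO 1, and 0 to 3 with single arrays left out (1 without replicate 1 of either Derlin-1 group or without either Derlin-2 KO array, and 0 without either Derlin-2 control). Pairs with Spink8 then turned negative, at -0.08 (Wfs1), -0.92 (Fibcd1), -0.17 (Pou3f1) and -0.63 (Mpped1) without the 2 farthest arrays and at -0.12, -0.92, -0.17 and -0.63 without the 2 Derlin-1 arrays. The range of the mean level over the arrays, 1.20, was 1.60 without Bok.

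Several differences changed sign, among them that of Pou3f1 for Derlin-1 (-0.39 in the analysis reported), and the cause was not tested. For Derlin-1, Bok (-0.01) was 0.02 under 75th percentile scaling and 0.01 in the deposited values. For Derlin-2, Wfs1 (0.00) was 0.02, 0.03 and 0.02 under 75th percentile scaling, normexp and the deposited values. The second Mpped1 probe's difference of effects (-0.55) was 0.01 under normexp. Without Derlin-1 control 1 and Derlin-1 KO 1, Spink8 turned to -0.28 for Derlin-1, -0.44 for the difference of effects and -0.30 between the lines. With single arrays left out, Derlin-1 differences ran from -0.54 to 1.12 (Fibcd1), -1.26 to 0.47 (Pou3f1), -0.23 to 0.65 (Mpped1), -0.69 to 1.12 (Spink8) and -0.08 to 0.06 (Bok). Derlin-2 differences ran from -0.32 to 0.32 (Wfs1), -0.58 to 0.04 (Fibcd1), -0.22 to 0.54 (Spink8) and -0.22 to 0.04 (Bok). The difference of effects ran from -0.27 to 1.39 (Fibcd1), -0.96 to 0.77 (Pou3f1), -0.85 to 0.96 (Spink8) and -0.05 to 0.21 (Bok), and Spink8 between the lines from -0.10 to 0.81. Leaving out the last eighth of the array rows (from row 337 of 384) removed Wfs1, whose probe lay in row 357.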
